A study of Homo sapiens with 4 samples.

Results

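MET, its ligand HGF, the MET relative MST1R (the gene of RON), ROS1, and the collagen receptors DDR1 and DDR2 were followed in EGFR-mutant lung adenocarcinoma cells that were sensitive or resistant to EGFR inhibitors. The 6 genes were chosen by name, matched by NCBI Gene ID, and looked up among 17490 genes listed in at least 1 of 4 deposited tables. The groups were H1975 cells sensitive to osimertinib, H1975 cells resistant to osimertinib, HCC827 cells sensitive to gefitinib and HCC827 cells resistant to gefitinib. Both are established human cell lines with activating EGFR mutations, and osimertinib and gefitinib are inhibitors of the EGFR kinase. Each group had 1 library of messenger RNA, so a difference within a line could not be set against replicates and carries no p-value. The sources used here do not state how the resistant cells were derived, whether they were clonal or whether drug was present at harvest.

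MET is the receptor of hepatocyte growth factor (HGF), a protein made mainly by mesenchymal cells as an inactive precursor and cleaved by serine proteases. Signalling through MET runs over the adaptors GRB2 and GAB1 to the MAPK and PI3K pathways, and activation or amplification of MET is a known route by which lung cancers escape EGFR inhibitors. RON is the epithelial receptor of macrophage-stimulating protein, encoded by MST1. ROS1 is a receptor kinase known in lung cancer for oncogenic fusions, and DDR1 and DDR2 are receptor kinases whose ligand is collagen, DDR1 mostly in epithelia and DDR2 mostly in mesenchymal cells.

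Depth was 22145163 and 22217897 expected counts in sensitive and resistant H1975, and 10934558 and 11034837 in sensitive and resistant HCC827. Of the 6 genes, 5 were listed in sensitive H1975, 6 in resistant H1975, 3 in sensitive HCC827 and 5 in resistant HCC827. The labelled lung epithelial identity was checked against its markers. Summed FPKM (a level corrected for gene length and library size) of 8 epithelial and lung adenocarcinoma markers was 2999 and 1018 in sensitive and resistant H1975, and 7001 and 2124 in HCC827. In resistant H1975 CDH1 (E-cadherin) was at 0.73 FPKM and EPCAM at 2.85 FPKM, and in resistant HCC827 the lung lineage factor NKX2-1 was at 0.08 FPKM. The 7 fibroblast markers summed to between 1.09 and 8.19 FPKM in the 4 libraries, and the defining marker DCN had at most 2 counts; in HCC827 LUM had 3 and 66 counts. In bulk libraries, fewer cells expressing a gene and less of its RNA per cell cannot be told apart.

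HGF, the ligand of MET, was at the limit of detection. It was not listed in sensitive H1975 or in either HCC827 library, and resistant H1975 had 1 count (0.03 FPKM). A count of 0 allows up to 3 counts, or 0.135 normalised CPM in sensitive H1975 and 0.28 and 0.267 in sensitive and resistant HCC827. No ratio is given, since all libraries lay at or under this floor. Of the genes beside HGF, the semaphorin gene SEMA3C had 384 and 1231 counts in HCC827 (1.61 [1.45, 1.78]) and was called higher, against −0.01 in H1975. PCLO (−0.69) in H1975 and SEMA3E (0.69) in HCC827 were not called. In the other line each was lower but under the filter for a call. PCLO had 112 and 20 counts in HCC827 (−2.55 [−3.32, −1.86]). SEMA3E had 48 and 0 counts in H1975, at least 15.9-fold lower against the floor. CACNA2D1, CD36 and GNAT3 had at most 20 counts in any library.

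MET was the most abundant of the 6 genes in every library. It had 12262 counts (87.01 FPKM) in sensitive and 10156 counts (69.97 FPKM) in resistant H1975, and 14584 counts (205.23 FPKM) and 18132 counts (256.84 FPKM) in sensitive and resistant HCC827. Its level thus lay at percentiles 94.5 and 92.7 of the genes listed in H1975 and at percentiles 98.2 and 98.6 in HCC827, with sensitive cells first. The normalised counts gave a log2 ratio, resistant over sensitive, of −0.26 [−0.30, −0.23] in H1975 and 0.25 [0.21, 0.28] in HCC827. Ranges in brackets are exact 95% intervals for counting error alone, which is small for MET because it was deeply counted. MET was 1.2-fold lower in one line and 1.19-fold higher in the other, both far inside the 2-fold needed for a call.

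**Figure D1:**
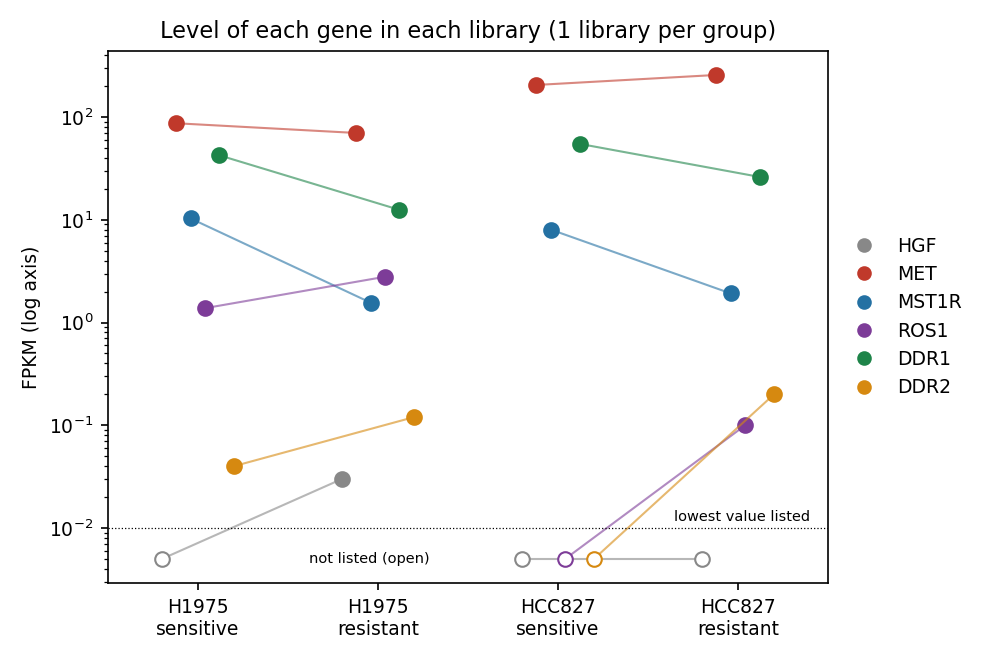
FPKM of HGF, MET, MST1R, ROS1, DDR1 and DDR2 (log axis) in the 4 libraries, 1 point per library, with lines joining the sensitive and resistant library of a line and open points for genes not listed. MET stays at the top, at 87.01 and 69.97 FPKM in H1975 and 205.23 and 256.84 FPKM in HCC827, while the MST1R and DDR1 lines slope down in both.

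Genes beside MET had ratios in both directions in each line. CAPZA2, which encodes an actin capping subunit and follows MET in gene order, had a log2 ratio of −0.23 [−0.30, −0.16] in H1975 and 0.80 [0.70, 0.89] in HCC827, where it had 1316 and 2395 counts. ST7, the next gene, had 0.08 [−0.07, 0.24] and 0.51 [0.29, 0.73]. On the other side, the caveolin genes CAV1 and CAV2 had ratios of 0.09 and −0.52 in H1975 and of −0.26 and 0.30 in HCC827, and TES had −0.82 and 0.07. WNT2 was not listed. Of the 5 measured neighbours, 2 had values above 0 and 3 below in H1975, and 4 above and 1 below in HCC827, where the interval of TES [−0.04, 0.19] spanned 0. None of the 5 was called in either line. DNA copy number was not measured here.

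MST1R, the gene of the epithelial receptor RON, was much lower in both resistant lines. Sensitive H1975 had 1041 counts (10.3 FPKM) and resistant H1975 154 counts (1.56 FPKM), while sensitive HCC827 had 395 counts (8.03 FPKM) and resistant HCC827 94 counts (1.92 FPKM). The 2 sensitive libraries lay close together despite the difference in cell line, as did the 2 resistant ones. The log2 ratio was −2.75 [−3.0, −2.50] in H1975, a 6.72-fold lower level (5.67-fold to 8.01-fold), and −2.14 [−2.48, −1.81] in HCC827, a 4.41-fold lower level (3.51-fold to 5.58-fold). Ratios this low or lower were found for 2.55% of all genes considered in H1975 and 3.49% in HCC827. MET exceeded MST1R by 8.45-fold and 44.9-fold in FPKM in sensitive and resistant H1975, and by 25.6-fold and 134-fold in HCC827.

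The RON ligand gene MST1 was barely detected, with 17 and 18 counts in H1975 and 3 and 5 counts in HCC827, sensitive first. Its H1975 counts were not whole, and MST1 has near-identical copies in the genome, so its values are uncertain. None of the protein-coding neighbours of MST1R moved as far as it did. MON1A, RBM6 and RBM5 on one side had log2 ratios of 0.03, 0.30 and −0.24 in H1975 and 0.77, 0.10 and 0.17 in HCC827. On the other side TRAIP had −0.20 and 0.19, and UBA7 had −0.47 and −1.14, the latter from 40 and 19 counts and called lower. CAMKV, the nearest gene on that side, had at most 3 counts in any library.

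Because MST1R and DDR1 were lower together in both lines, the letters before their starts are shown. They come from the RefSeq promoter table of the GRCh38.p14 build, which gives 1 start per gene, and the counts used here do not say which start the cells used. The windows were searched on both strands for the E-box CAGGTG, a sequence bound by ZEB and SNAI repressors and read as CACCTG on the opposite strand. They were also searched for AACCNGGTT, a pattern chosen for GRHL factors. Its free middle base N means that AACC followed directly by GGTT was not matched. Capitals mark an E-box. The matches found do not overlap one another. The 250 bases before the start of MST1R lie on the minus strand at chr3:49903874-49904123, and those of DDR1 on the plus strand at chr6:30880720-30880969.

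MST1R: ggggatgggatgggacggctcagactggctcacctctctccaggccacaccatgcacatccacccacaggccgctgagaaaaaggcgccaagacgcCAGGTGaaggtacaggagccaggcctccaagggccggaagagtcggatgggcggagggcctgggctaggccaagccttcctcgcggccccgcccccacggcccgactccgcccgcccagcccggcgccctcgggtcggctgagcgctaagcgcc

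DDR1: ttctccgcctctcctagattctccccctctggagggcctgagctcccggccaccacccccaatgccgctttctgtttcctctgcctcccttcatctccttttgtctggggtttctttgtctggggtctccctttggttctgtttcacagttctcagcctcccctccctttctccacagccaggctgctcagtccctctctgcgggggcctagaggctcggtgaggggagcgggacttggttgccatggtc

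The MST1R window held 2 E-boxes, starting at position −154 and, past the printed stretch, at position 25, counted from the start. The other 5 genes had none from 250 bases before to 50 after the start, and 20.6% of 27305 promoters of that length hold at least 1. No window of the 6 genes held AACCNGGTT, which 0.245% of all promoters hold. Sites without the free middle base were not searched, so this does not show whether the windows hold GRHL sites. GC content was 71.3% for MST1R, 69.3% for MET and 62.3% for DDR1, against 51.0% for HGF, 41.0% for DDR2 and 40.0% for ROS1, and the median over all promoters was 58.3%.

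ROS1 was a low-level transcript of H1975 and close to absent in HCC827. In H1975 it had 208 counts (1.38 FPKM) in sensitive and 429 counts (2.79 FPKM) in resistant cells. The ratio was 1.05 [0.81, 1.30], or 2.07-fold higher (1.75-fold to 2.46-fold), and ratios this high or higher were found for 2.92% of genes considered. This call sat just past 2-fold, and the difference was 0.97 as log2(FPKM + 0.1) and 0.67 as log2(FPKM + 1), both short of it. In HCC827 it was not listed in sensitive cells and had 8 counts (0.10 FPKM) in resistant cells, at least 2.54-fold higher against a floor of 3 counts and too few for a call. The genes that follow ROS1 in gene order, DCBLD1, GOPC and NUS1, had ratios of −0.20, 0.19 and 0.48 in H1975 and 0.23, −0.34 and 0.32 in HCC827, and none was called. On the other side VGLL2 and RFX6 were not listed and GPRC6A had at most 2 counts. The H1975 tables count ROS1 over 14 transcript models, 13 of them predicted, and the HCC827 tables over 1. Gene-level counts do not show where in the gene the reads lie. NELL2, which encodes a ligand of ROS1, had at most 4 counts in any library.

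DDR1, the epithelial collagen receptor, was lower in both resistant lines, and less so in HCC827. It had 3576 counts (42.39 FPKM) in sensitive and 1062 counts (12.49 FPKM) in resistant H1975. The corresponding HCC827 libraries had 2259 counts (54.86 FPKM) and 1105 counts (26.14 FPKM). Both sensitive libraries were above both resistant ones. The log2 ratio was −1.74 [−1.84, −1.64] in H1975, 3.35-fold lower (3.13-fold to 3.59-fold), and −1.10 [−1.21, −1.0] in HCC827, 2.14-fold lower (1.99-fold to 2.31-fold). The HCC827 value sat just past the 2-fold needed for a call, and 9.71% of genes considered in that line had a ratio as low or lower, against 4.61% for the H1975 value.

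In H1975 none of the 5 measured neighbours of DDR1 had a ratio below 0, and in HCC827 FLOT1, VARS2 and SFTA2 did. GTF2H4, a subunit of a transcription and repair factor, had ratios of 0.38 and 0.21 in H1975 and HCC827. IER3 had 0.29 and 0.47, FLOT1 0.21 and −0.25, TUBB 0.46 and 0.78, and VARS2 0.03 and −0.63. SFTA2, the surfactant-associated gene 3 places away, was not listed in H1975 and had 826 and 1 counts in HCC827, a log2 ratio of −9.76 [−15.06, −7.28], the only called neighbour of DDR1.

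DDR2, the mesenchymal collagen receptor, was under 1 FPKM in every library. It had 6 counts (0.04 FPKM) and 17 counts (0.12 FPKM) in sensitive and resistant H1975, and was not listed in sensitive HCC827 but had 7 counts (0.20 FPKM) in the resistant cells. The H1975 ratio was 1.51 with a wide interval [0.10, 3.14], and the HCC827 value was at least 2.23-fold against the floor. Both resistant libraries were thus above their sensitive partners, at counts too low to be called. DDR1 remained the more abundant collagen receptor by a wide margin, at 12.49 against 0.12 FPKM in resistant H1975 and 26.14 against 0.20 FPKM in resistant HCC827. Of the genes beside DDR2, UAP1 was called higher (2.13-fold) and RGS4 lower (2.07-fold) in HCC827. UHMK1 (−0.46 and −0.29) and HSD17B7 (−0.46 and −0.75) were not called in H1975 or HCC827, CCDC190 and SH2D1B had at most 6 counts, and no neighbour was called in H1975.

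**Figure D2:**
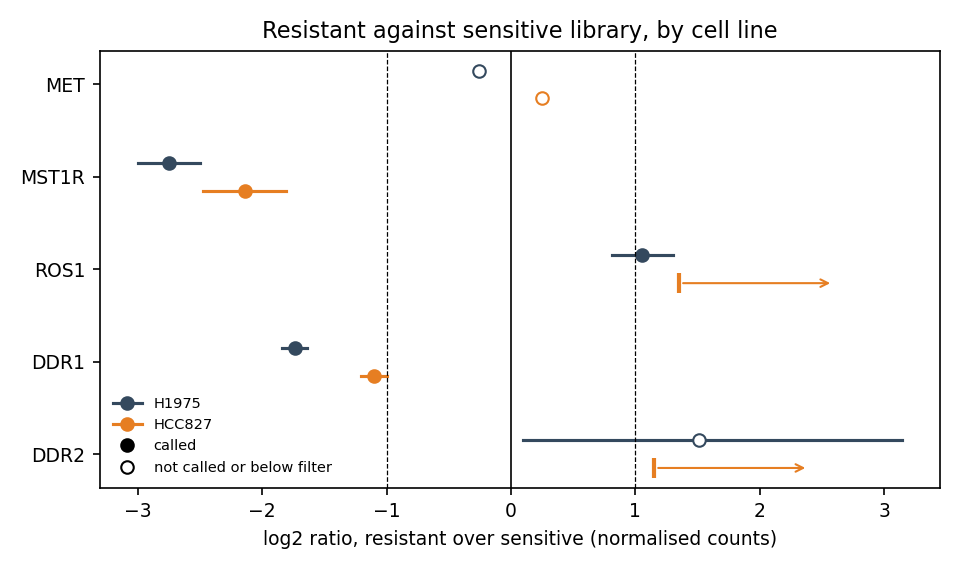
Resistant over sensitive ratio (log2, normalised counts) for 5 receptor genes in H1975 and HCC827, with bars for exact 95% counting intervals, filled points for calls, dashed lines at 2-fold, and arrows where the sensitive library had no count and the value is a lower bound. MET lies near 0 in both lines (−0.26 and 0.25), MST1R and DDR1 lie left of the dashed line in both, and ROS1 in H1975 lies just right of it at 1.05.

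A gene was considered for a call when 1 or both libraries of the line reached 1 FPKM and 20 counts. In H1975, 4 of the 6 genes were considered, MST1R and DDR1 were called lower, ROS1 was called higher and MET was not called. Over all 11872 genes considered in H1975, 8.56% were called lower and 3.21% higher. In HCC827, 3 of the 6 were considered, MST1R and DDR1 were called lower and MET was not called. There 11.0% of 11890 genes were called lower and 7.05% higher. MST1R and DDR1 were called lower in both lines, as were 3.49% of the 10961 genes considered in both.

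The 2 lines can stand as replicates of one comparison, with different drugs, in a test over all 4 libraries. In edgeR's quasi-likelihood test with the cell line as a block, MST1R had a log2 fold change of −2.43 (SE 0.33) and a Benjamini-Hochberg adjusted p of 0.152. DDR1 had −1.41 (SE 0.25, edgeR adjusted p = 0.205) and MET 0.01 (SE 0.25, edgeR adjusted p = 0.995). Neither decrease passed the threshold of 0.05. No gene did (0.0% of 13036), although 1352 had an unadjusted p under 0.05, and by p MST1R ranked 71 and DDR1 192. With DESeq2 on the same counts, 113 genes were called higher and 335 lower (2.55% of 13158), and MST1R (adjusted p = 3.81e-06) and DDR1 (adjusted p = 0.00338) were among the lower ones. The DESeq2 fit tested 13689 genes, without the filter on low counts used for edgeR, so tool and gene set differed together. HGF, ROS1 and DDR2 were absent from at least 1 table and were not in this test. When absent genes were admitted as 0, ROS1 had 1.73 (edgeR adjusted p = 0.608) and DDR2 2.34 (edgeR adjusted p = 0.607).

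Among the 58 human receptor tyrosine kinases, MET led H1975 and followed EGFR in HCC827. It held rank 1 in sensitive H1975, ahead of EPHB4 (74.35 FPKM), and rank 1 in resistant H1975, ahead of EPHB4 at 42.2 FPKM. Its part of the summed FPKM of all 58 was 18.7% and 21.0% there. In HCC827 it held rank 2 behind EGFR (850.48 and 567.96 FPKM), and its part of the sum was 14.3% in sensitive and 21.7% in resistant cells. The rise of that share came with a lower sum, 1440 FPKM in sensitive and 1181 FPKM in resistant HCC827. DDR1 moved from rank 3 to rank 9 in H1975 and from rank 4 to rank 8 in HCC827. MST1R moved from rank 12 to 20 and from rank 14 to 20, and ROS1 in H1975 moved from rank 26 to 17.

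**Figure D3:**
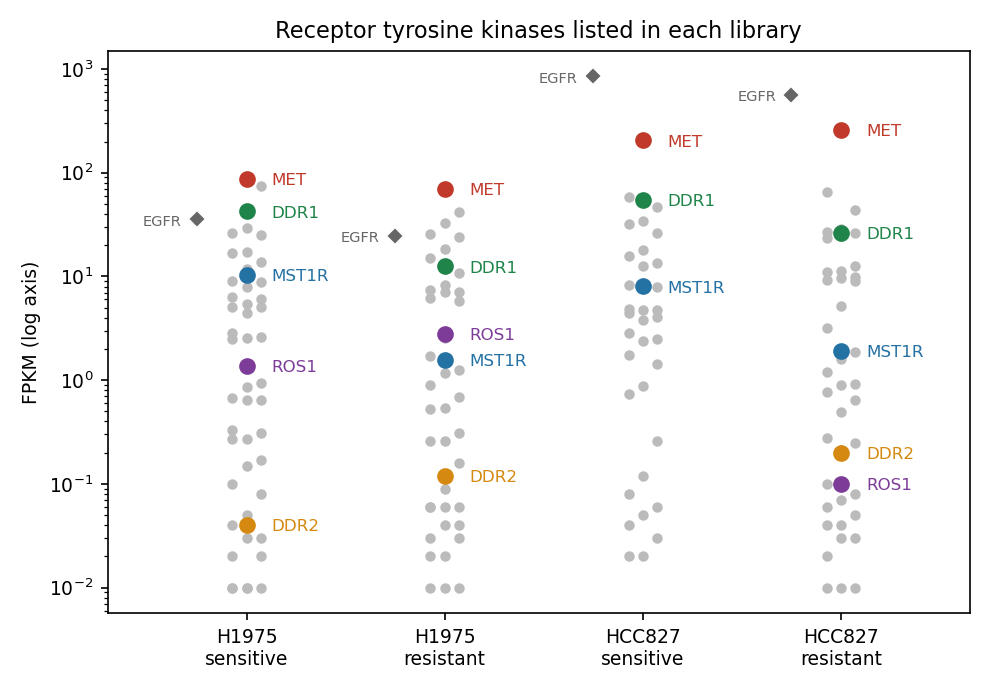
FPKM (log axis) of every receptor tyrosine kinase listed in each of the 4 libraries, 1 point per gene, with EGFR as a diamond and the 5 receptors named in colour. MET is the highest point in both H1975 libraries (87.01 and 69.97 FPKM) and lies under EGFR alone in HCC827, and MST1R and DDR1 sit lower in each resistant column than in its sensitive partner.

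Receptor kinases other than MET, MST1R, ROS1, DDR1 and DDR2 were also more often called lower than higher in H1975. Of 23 such kinases considered there, 7 were lower and none higher (median log2 ratio −0.47), and of 24 in HCC827, 6 were lower and 4 higher (median −0.42). The 4 higher in HCC827 were AXL (14.1-fold), FGFR1 (4.75-fold), TYRO3 (3.52-fold) and INSR (2.1-fold). In H1975 AXL sat at the 2-fold limit without a call (1.0 [0.91, 1.08]). The median over all genes considered was 0.00 in each line. Those genes too were more often called lower than higher, 8.56% against 3.21% in H1975 and 11.0% against 7.05% in HCC827. Of 24 receptor kinases considered in both lines, 7 were lower in both, which is 7 of the 9 that were lower in H1975 and 7 of the 8 in HCC827. Over all genes, 382 of the 10961 considered in both lines were lower in both. Those called lower numbered 1016 in H1975 and 1302 in HCC827. Besides MST1R and DDR1 the kinases lower in both lines were ERBB3, EPHA1, EPHB3, LMTK3 and MERTK. Among the 27 receptor kinases considered in each line, MST1R had the fifth lowest ratio, and 7 kinases in H1975 and 6 in HCC827 had a lower ratio than DDR1. Some kinases below the filter had lower ratios than MST1R, such as ROR2 (−4.64, from 25 and 1 counts) in H1975 and ERBB4 (−2.88, from 7 and 1 counts) in HCC827.

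**Figure D4:**
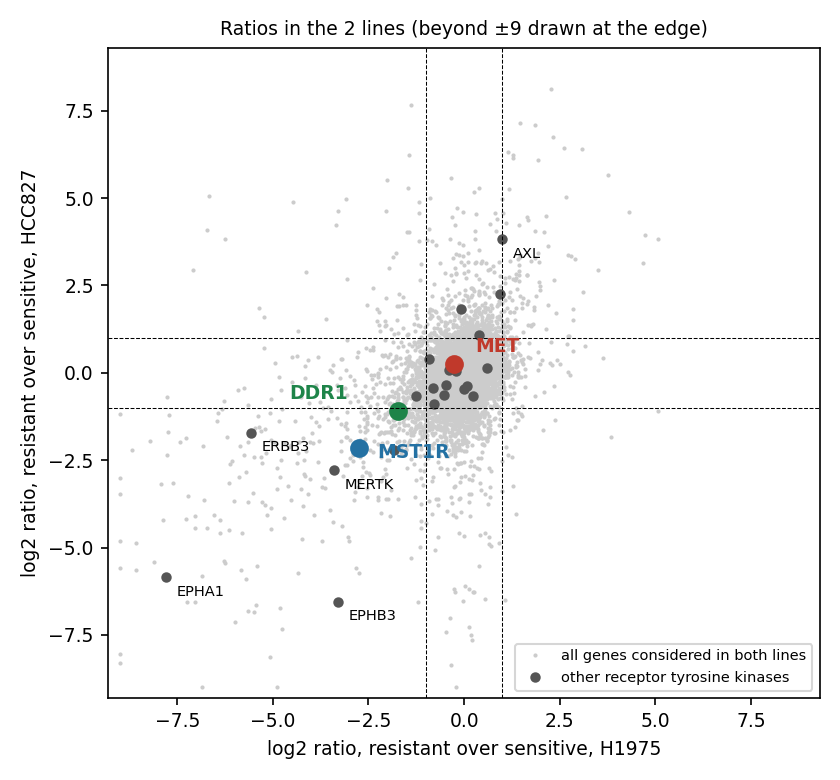
Resistant over sensitive ratio (log2, normalised counts) in H1975 (x axis) against HCC827 (y axis), 1 point per gene considered in both lines, with receptor kinases as dark points, MET, MST1R and DDR1 in colour and dashed lines at 2-fold; genes without a count in 1 library are drawn at the 3-count floor. MST1R (−2.75, −2.14) and DDR1 (−1.74, −1.10) lie in the lower left quadrant and MET (−0.26, 0.25) near the centre.

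The genes that control cleavage of the HGF and MST1 precursors included proteases and inhibitors called lower in both resistant lines, with fewer calls in HCC827. Of 9 such genes, all 6 considered were called lower in H1975 (median −2.94), and 3 of 5 in HCC827 (median −1.28). The shares called lower over all genes considered were 8.56% and 11.0%. The protease matriptase, ST14, had 2349 and 10 counts in H1975 (−7.87 [−8.93, −6.99]) and 4611 and 259 counts in HCC827 (−4.22 [−4.41, −4.04]). Its inhibitor SPINT1 had −8.68 [−10.13, −7.56] and −2.22 [−2.36, −2.07]. SERPINA5 was 8.53-fold and SPINT2 6.88-fold lower in H1975, and both were not called in HCC827 (0.09 and −0.82). PLAU, the gene of urokinase, was 4.78-fold lower in H1975 and 2.43-fold lower in HCC827. HPN, which encodes hepsin, had 33 and 14 counts in the sensitive libraries and none in the resistant ones, and HGFAC had at most 1 count. In H1975 both proteases and inhibitors were among the lower genes, while in HCC827 SPINT1 was the one inhibitor called lower.

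The collagens listed here as ligands of DDR1 and DDR2 had no common direction. Other collagens were not in that list, though some of them may also be ligands. Among them COL6A1 had ratios of 0.95 and 2.76 in H1975 and HCC827, and COL6A2 1.29 and 6.14. COL12A1 had 1.45 and 7.15, and COL17A1 −4.23 and −4.76. In H1975, 4 of the 19 genes in the list of ligands were considered: COL1A2 (8.87-fold) and COL8A1 (3.44-fold) were lower, and COL1A1 (14.92 and 9.41 FPKM) and COL5A1 (27.30 and 30.10 FPKM) were not called. In HCC827 the basement membrane collagen COL4A1 was higher, with 246 and 773 counts (3.0-fold), COL4A5 (2.33-fold) and COL4A6 (2.12-fold) were lower, and COL4A2 (0.61) and COL1A1 (0.32) were not called. Among fibrillar collagens in HCC827, COL1A1 had 113 and 148 counts and COL5A1 34 and 40. COL1A2 had 2 and 28 counts and COL3A1 1 and 10.

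Partners of these receptors at the membrane were split. In H1975, ITGB4 (24.4-fold), which pairs with ITGA6 (3.6-fold) and is known to associate with MET, and the semaphorin receptors PLXNB3 (3.16-fold) and PLXNB2 (2.81-fold) were lower, while LRIG1, a negative regulator of receptor kinases, was 3.72-fold higher. In HCC827, MUC20, a mucin that binds MET, had 1256 and 24 counts (−5.78 [−6.43, −5.20]), ITGB4 was 9.42-fold, PLXNB3 4.52-fold and ITGA6 2.16-fold lower. CD44, a co-receptor of MET, was higher in HCC827 with 5922 and 14967 counts (2.41-fold) and not called in H1975 (0.24), and ICAM1 was 2.81-fold higher in HCC827 and not called in H1975 (0.83).

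Intracellular adaptors and effectors differed little. None of 17 considered in H1975 and 18 in HCC827 was higher, and 1 was lower in each line. These were VAV3, an exchange factor with 163 and 3 counts in H1975 (−5.76 [−8.05, −4.18]), and GAB1, the main docking protein of MET, with 412 and 93 counts in HCC827 (−2.22 [−2.56, −1.89]). GAB1 had 445 and 419 counts in H1975 (−0.08). GRB2 had −0.10 and −0.11, and PTPN11, the phosphatase SHP2, 0.61 and 0.05. Among 8 negative regulators and sheddases, PTPN6, the gene of the phosphatase SHP1, was 2.36-fold lower in H1975. None was called in HCC827, where the phosphatase gene PTPRJ came closest at −0.99 [−1.14, −0.84] and PTPN6 had −0.77. CBL, the ubiquitin ligase that directs MET to degradation, had 0.41 and ADAM10 −0.18 there. Over the 5 lists together, 14 of 44 genes considered were lower and 1 higher in H1975 (median −0.15). In HCC827, 10 of 45 were lower and 3 higher (median −0.31). The shares over all genes considered were 8.56% lower and 3.21% higher in H1975, and 11.0% lower and 7.05% higher in HCC827.

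**Figure D5:**
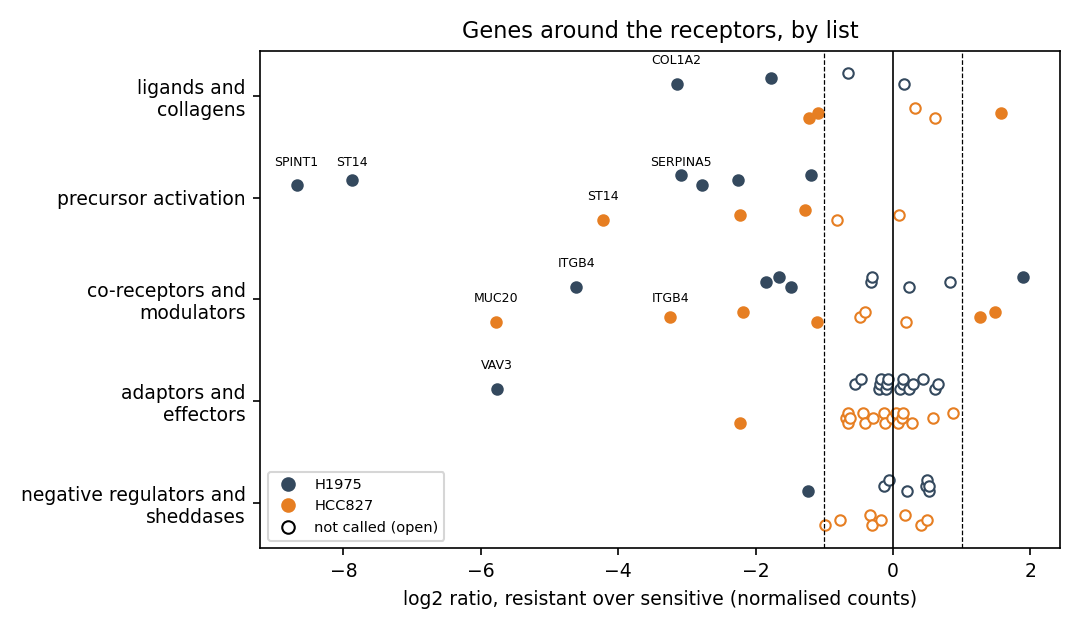
Resistant over sensitive ratio (log2, normalised counts) for the genes of 5 lists around the receptors, 1 point per gene considered in H1975 or HCC827, filled where called, with dashed lines at 2-fold. The precursor activation list extends furthest left, to SPINT1 (−8.68) and ST14 (−7.87) in H1975, while adaptors and effectors lie between the dashed lines except VAV3 (−5.76) and GAB1 (−2.22).

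The lower MST1R and DDR1 values came with lower epithelial markers. Of the 8 epithelial and lung markers, 4 of the 7 considered were lower in H1975 (median −2.54), and all 8 were lower in HCC827 (median −2.35). Over all genes considered, 8.56% were called lower in H1975 and 11.0% in HCC827. KRT8 (−0.46) and KRT18 (−0.49) were not called in H1975, and CDH1 was 113-fold lower there and 4.24-fold lower in HCC827. Of the 7 fibroblast markers, the 1 considered in H1975 was lower (FBLN1, −1.42), and the 1 considered in HCC827 was higher (LUM, 4.39 [2.78, 6.71]). The part of these changes in the MST1R and DDR1 values was not tested.

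Weighted gene lengths, which RSEM averages over transcripts by their estimated abundance, shifted little for these genes. MET had 6295 and 6461 bases in H1975 (a change of 2.65%) and 6433 and 6334 bases in HCC827 (−1.55%). For MST1R the change was −2.35% and −1.41%, for DDR1 0.48% and 1.70%, and for ROS1 in H1975 1.54%. A shift in log2 length as large as that of MET was found for 18.3% of genes considered in H1975 and 13.4% in HCC827. FPKM ratios followed the count ratios, at −2.72 and −2.06 for MST1R and −1.76 and −1.07 for DDR1 on the log2 scale.

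Genes with the most similar pattern were sought by Euclidean distance between log2(FPKM + 1) values centred over the 4 libraries, among 12834 genes. For MST1R the nearest were F2RL1, the gene of protease-activated receptor PAR2 (distance 0.121; 36.10, 7.62, 31.05 and 9.66 FPKM in sensitive and resistant H1975 and sensitive and resistant HCC827), FUT3 (0.128) and ANKRD22 (0.225). For DDR1 they were CRYBG2 (0.193), PRAG1 (0.198) and SSH3 (0.212), the last with 37.42, 9.66, 42.21 and 23.97 FPKM in the same order. For MET they were ELMOD1 (0.011), JMJD8 (0.050) and FBXW10B (0.118), and for ROS1 RHOQ (0.065), HNRNPR (0.092) and RSU1 (0.150). The added 1 FPKM compresses changes of low genes, so that a gene such as ELMOD1, at 0.34 to 3.91 FPKM, can match MET in this measure while its level is far lower. A distance over 4 libraries describes these libraries only.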

How the data were processed

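Messenger RNA libraries of 4 groups, 1 per group, were grouped by cell line and drug response label. Per the labels' protocols, TRIzol served for extraction and an MGIEasy mRNA kit for library preparation. HISAT2, Bowtie2 and RSEM were used with hg19, per the submitters' processing notes, with versions, settings and strand use not given in the sources used here. Tables as deposited by the authors hold RSEM expected counts, not normalized, FPKM values scaled by the authors for length and library total, and a weighted gene length. The lowest FPKM listed is 0.01, and a gene missing from a table was taken as 0. The H1975 tables use more transcript models than the HCC827 tables, so levels in the 2 lines are set side by side and ratios were taken within a line. MET counts were not whole in any library, so some of its reads were shared by RSEM with other features.

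Expected counts were rounded and scaled within each pair by TMM factors (edgeR 4.0.16; 1.005 and 0.995 in H1975, 0.981 and 1.019 in HCC827, sensitive first). Ratios carry the exact conditional binomial 95% interval, for counting error only, and reads are not unique molecules. A library at 0 was set to 3 counts when its partner exceeded 3. A call needed at least 1 FPKM and 20 counts in 1 library, a 2-fold difference and an interval that excluded 0. Across both lines, resistant and sensitive cells were compared with edgeR's quasi-likelihood test, two-sided, with Benjamini-Hochberg adjustment at 0.05. It covered genes listed in all 4 tables that passed filterByExpr. The cell line was a block, since libraries of 1 line form a pair. Its p-values rest on 2 pairs only, with each gene's spread moderated by that of all genes tested. The SE values given with edgeR folds were not fitted directly. They were back-calculated as the absolute log2 fold change over the square root of that test's F statistic. DESeq2 1.42.0 was an alternative. The edgeR and interval code was run on simulated counts, with a fixed spread for edgeR and counting error alone for the intervals. Such counts are simpler than these libraries and do not show how well either performs here. Symbols, gene order and promoters came from RefSeq tables of GRCh38.p14, with 98.6% of H1975 and 99.8% of HCC827 Gene IDs matched.

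The 6 genes, the lists and the rules were chosen with earlier results of these data known. Named were all 6 genes, up to 4 called genes per list and line by size of the ratio, with further list members where a receptor's role called for them, the 3 neighbours on each side and the 3 nearest patterns. Those further members (CD44, ICAM1, CBL, GRB2 and the like) and the fibroblast, endothelial and blood lists serve as description only. Of 4 endothelial markers 1 was considered in H1975 (lower) and none in HCC827, and of 6 blood markers 2 in H1975 (1 lower) and 1 in HCC827 (not called).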

Additional observations from a re-analysis of the deposited data

Results flagged for a closer look

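MET was the only one of the 6 genes whose ratio pointed in opposite directions in the 2 lines with both counting intervals off 0. It was −0.26 in H1975 and 0.25 in HCC827, a difference of 0.51 on the log2 scale. Each line has 1 library per group, and the difference was not tested.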

How the results depend on the processing

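Each within-line ratio was recomputed with library totals, DESeq2 size factors, unrounded counts, FPKM ratios and log2(FPKM + 1) or log2(FPKM + 0.1). Of 56 such values, 44 stayed inside the counting interval of the reported ratio, 12 moved outside it and none changed sign. MET ranged from −0.31 to −0.26 in H1975 and from 0.25 to 0.32 in HCC827, DDR1 from −1.76 to −1.69 and from −1.10 to −1.04, and MST1R from −2.76 to −2.14 and from −2.14 to −1.63, the ends nearest 0 coming from log2(FPKM + 1). On that scale ROS1 in H1975 was 0.67, and 0.97 with log2(FPKM + 0.1). MST1R and DDR1 were called lower in both lines with library totals and with DESeq2 size factors; the other fold and filters tried were looser than the rule used, so they could not end a call. Without a filter, 2 genes were called higher in H1975 (ROS1 and DDR2) and 2 in HCC827 (the same genes) in place of 1 and 0, and with at least 0.1 FPKM and 10 counts 2 were higher in H1975. DESeq2 with the cell line as a term called MST1R (−2.42) and DDR1 (−1.39), which edgeR did not, and 113 genes higher and 335 lower where edgeR called 0 and 0; that fit also tested more genes, and the cause was not tested. Under the other edgeR fits the adjusted p ranged from 0.17 to 1 for MST1R and from 0.241 to 1 for DDR1, the upper ends without the cell line term. That fit, with no replicate block, gave log2 fold changes of −2.43 for MST1R, −1.33 for DDR1 and 0.13 for MET. Depth limits HGF, DDR2 and, in HCC827, ROS1, where no library exceeded 17 counts.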
